A study of Mus musculus with 4 samples.

Results

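Gasdermins are a family of proteins that can form pores in membranes, and their transcripts were followed here in the inflamed mouse colon. Members were the probes whose annotated gene symbol, or its current synonym, begins with Gsdm. This gave 11 probes for 7 genes, of 21020 named probes and 16637 named genes on the array: Gsdmc4 with 1 probe, Gsdmc with 3, the pseudogene Gsdmcl1 with 2, Gsdmd with 2, and Gsdma, Gsdma2 and Gsdme with 1 each. The RefSeq gene table lists 12 genes of this name. Gsdmc2, Gsdmc3, Gsdma3, Gsdmcl2 and Gsdmcl-ps have no probe under their name here and no value is given for them. The genes were chosen by name with their values on these same 4 arrays in view, and all their differences are given as a description.

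Colon RNA of female mice was labelled with Cy3 and hybridised to 1-colour arrays, 1 array per group. The 4 groups, drawn from 24 mice in sets of 6, were TNBS with ginger extract (the ginger array), TNBS with zingerone (the zingerone array), TNBS alone and mock. TNBS is trinitrobenzene sulfonic acid, a hapten that provokes colitis when given in ethanol, and all 3 groups that received it were given 250 mg/kg. Every group, mock included, received 0.1 ml of 50% ethanol, the extract or zingerone being mixed into the same dose, and colons were taken on day 7. Zingerone is a phenolic ketone of ginger. The strain is labelled BALB/c for mock and spelled BALC/c for the other groups, and the mice's age is not given. Neither the amount of ginger extract or zingerone behind each array nor the number of mice whose RNA it carried is given. Because mock mice also received ethanol, the TNBS and mock arrays differ in TNBS and not in the vehicle.

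With 1 array per group there are no replicates, and neither errors nor p-values can be had. The precision is limited by the number of arrays. Values are linear Cy3 intensities, and differences are in log2 intensity with the first-named array on top. A gene with several probes has the mean of their log2 values. A gene counts as measured if on at least 1 of the 4 arrays its value was not under the median of the named probes, which was 270.5 on the mock array. In counts of genes or probes, higher and lower stand for a difference of at least 2-fold between 2 arrays. By this rule 10056 genes were measured, and 3 of the 7 gasdermins were among them: Gsdmc4, Gsdmc and Gsdmd. Gsdmc passed this filter on the ginger array alone, so its ginger comparisons start from the array that admitted it. Markers of the labelled tissue were present: all 10 general markers of epithelium were measured, 12 of 13 surface colonocyte markers and 8 of 9 goblet cell markers. Of the squamous markers of anal skin, Krt5, Krt6a, Lor, Flg and Ivl lay under the median on all 4 arrays, while Krt1, Krt10 and Krt14 were measured.

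A gasdermin is made as an inactive protein whose C-terminal part holds back the pore-forming N-terminal part. Proteases cut the linker between them: Casp1 and Casp4 (the mouse gene for caspase-11) cut gasdermin D, caspase-3 cuts gasdermin E, and caspase-8 cuts human gasdermin C. The freed N-terminal parts assemble in the plasma membrane, let out interleukin-1β and interleukin-18, and can end in a lytic death called pyroptosis. Gsdmd is expressed in macrophages and in the gut epithelium, where a role in mucus secretion by goblet cells has been described. The Gsdmc genes of mice lie side by side on chromosome 15 and are expressed in the intestinal epithelium, where type 2 cytokines acting through Stat6 raise them during worm infection. Gsdma genes are known from the skin.

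Gsdmc4 and 1 probe of Gsdmc were low on the TNBS array and nearer to mock on the ginger and zingerone arrays, whereas the 4 arrays lay at most 1.30-fold apart on each of the 2 Gsdmd probes. Gsdmc4 was 9.85-fold lower on TNBS than on mock. Of the 3 measured gasdermins, 1 was at least 2-fold lower on TNBS, Gsdmc4, and none was higher, where 4.52% of all measured genes were lower and 5.08% higher. Of the 11 probes 2 were lower, that of Gsdmc4 and the brightest of Gsdmc, and the other 9 differed by at most 0.21 on the log2 scale.

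Gsdmc4, a member of the intestinal Gsdmc cluster, read 2414 on the ginger array, 1446 on the zingerone array, 416.5 on the TNBS array and 4101 on the mock array. Mock was highest and TNBS lowest, with ginger and zingerone between them and ginger the brighter. As a share of the mock intensity these were 58.9% on ginger, 35.3% on zingerone and 10.2% on TNBS. The TNBS minus mock difference of -3.30 stood at place 9 from the lowest among 10056 measured genes, whose 5th percentile was -0.95 and whose median was -0.04. In bulk tissue, fewer cells of a type and less RNA per cell cannot be told apart.

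Gsdmc, the first gene of that cluster, had 3 probes that did not behave alike. The brightest read 628 on ginger, 419.8 on zingerone, 127.5 on TNBS and 516 on mock, so TNBS again stood lowest, and ginger lay above mock. Its TNBS value was close to the 5th percentile of all probes on that array, 122, so the 4.05-fold lower reading on TNBS starts from near the bottom of the scale. The second probe read 197 on ginger, 192.5 on zingerone, 183 on TNBS and 183 on mock, and the third read 181, 155.5, 156 and 174.5 in the same order. Both of these lay under the median of the named probes on every array, and the 4 arrays lay at most 1.16-fold apart on each. Over the mean of the 3 probes Gsdmc differed by -0.73 between TNBS and mock, short of 2-fold. For comparison, among 1775 measured genes with 2 probes the probes' TNBS minus mock differences lay 0.40 apart at the median and 1.35 at the 95th percentile.

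Gsdmcl1, a transcribed pseudogene of the same cluster, was dim. Its first probe read 216.5 on ginger, 215 on zingerone, 251.5 on TNBS and 258 on mock, and its second read 227, 234, 224 and 220.0 in that order. Neither probe differed between TNBS and mock by more than 0.04 on the log2 scale. Within the cluster, 1 of the other 5 probes shared the low reading of Gsdmc4 on TNBS. Probe sequences are not used here, so how far the Gsdmc4 probe also reads the transcripts of Gsdmc2 and Gsdmc3, near relatives in the cluster, was not tested.

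Gsdmd, the gasdermin cut by inflammatory caspases, had 2 probes that both lay above the median of the named probes on every array. The brighter read 1454 on ginger, 1639.8 on zingerone, 1559 on TNBS and 1752 on mock. The dimmer read 394.5 on ginger, 468.5 on zingerone, 360 on TNBS and 415 on mock. The arrays lay close together on both probes, and TNBS minus mock was -0.17 and -0.21. In the mean of the probes Gsdmd differed by -0.19 between TNBS and mock, by 0.02 between ginger and TNBS and by 0.23 between zingerone and TNBS. The Gsdmc4 difference for TNBS minus mock lay -3.11 from that of Gsdmd, a gap between genes on the same 2 arrays with no error attached. Both genes lie on chromosome 15, at separate loci.

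The remaining gasdermins were dim on every array. Gsdma read 213 on ginger, 192 on zingerone, 174 on TNBS and 195.5 on mock. Gsdma2 read 189 on ginger, 225 on zingerone, 192 on TNBS and 189.8 on mock. Gsdme, whose protein is cut by caspase-3, read 142.5 on ginger, 222 on zingerone, 148.5 on TNBS and 172 on mock, with zingerone the highest. None of the 3 was 2-fold apart in any of the 6 comparisons, and all lay under the median of the named probes, so a difference between arrays could not be read for them at this signal.

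**Figure D1:**
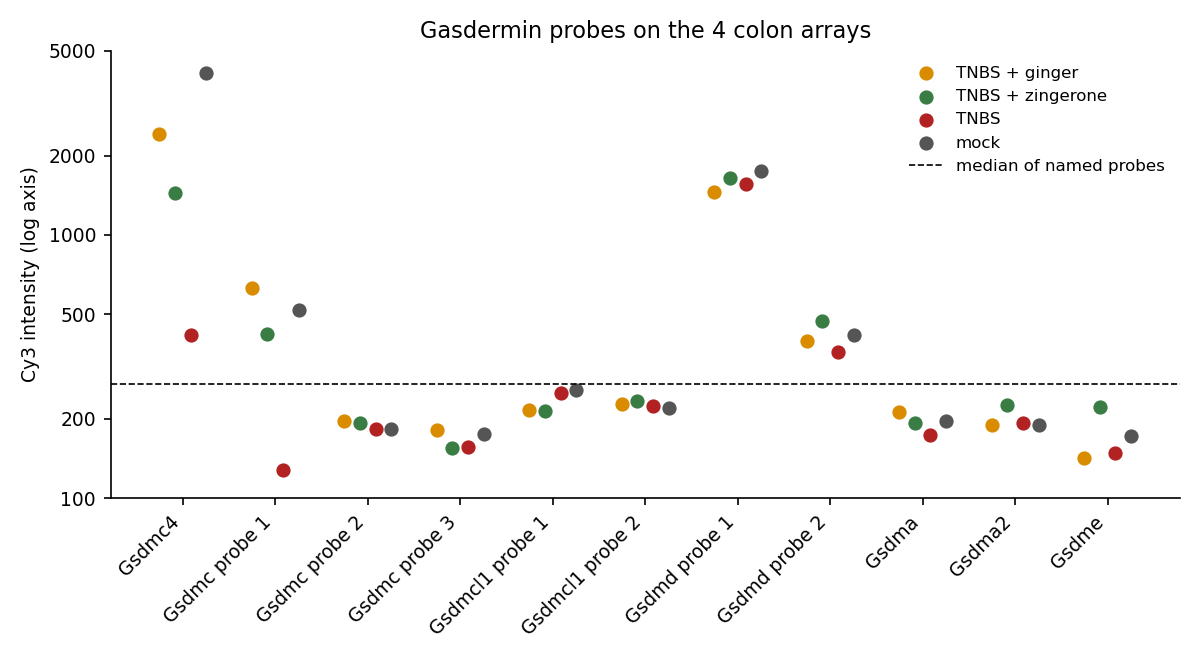
Cy3 intensity (log axis) of the 11 gasdermin probes, with 1 point per array and no replicates; the dashed line is the median of the named probes. Gsdmc4 lies at 416.5 on TNBS and 4101 on mock and probe 1 of Gsdmc at 127.5 and 516, while the 2 Gsdmd probes keep their 4 points close together and the other probes lie under the line.

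Ginger extract and zingerone were each given with TNBS, and these arrays are set first against TNBS alone. Both comparisons share the TNBS array with the one above, so a value that is low on that array alone enters all 3. Gsdmc4 was 5.80-fold higher on ginger and 3.47-fold higher on zingerone than on TNBS. It was the 1 measured gasdermin of 3 past 2-fold in each comparison, against 1.35% of measured genes higher and 2.48% lower on ginger, and 4.57% higher and 2.96% lower on zingerone. By size it stood at place 6 from the highest on ginger and at place 48 on zingerone, of 10056.

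The brightest Gsdmc probe was 4.93-fold higher on ginger and 3.29-fold higher on zingerone than on TNBS. Over its 3 probes Gsdmc was 0.87 higher on ginger and 0.60 higher on zingerone (log2), short of 2-fold in both. No other gasdermin probe was 2-fold apart from TNBS. The largest difference among them was that of Gsdme on zingerone, 0.58.

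**Figure D2:**
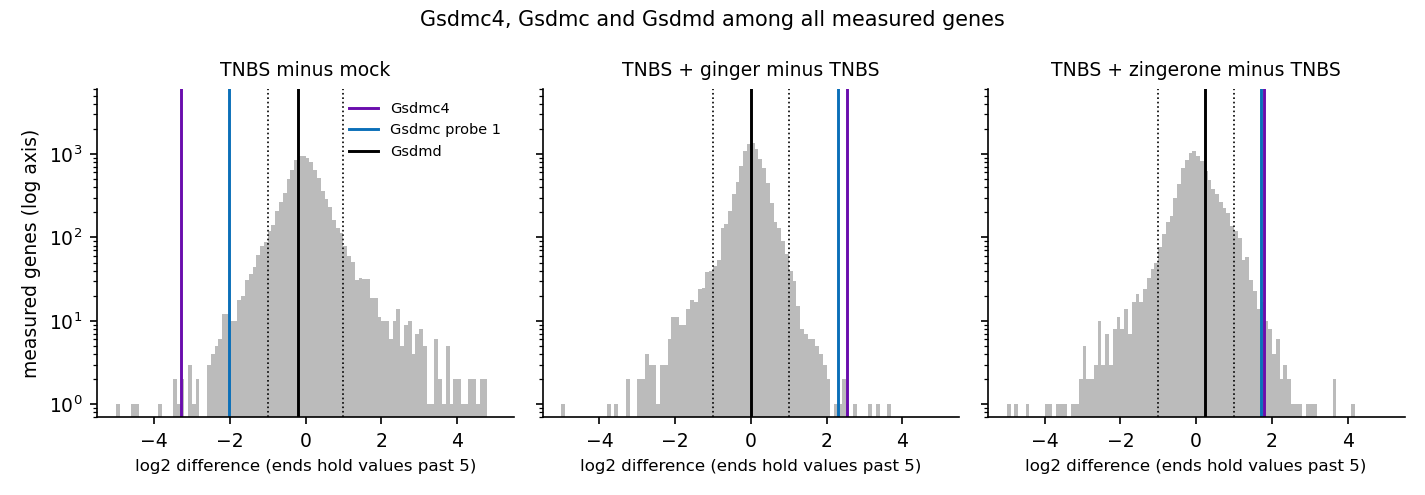
Histograms of the log2 difference of all 10056 measured genes in 3 comparisons (gene number on a log axis), with dotted lines at 2-fold and coloured lines for Gsdmc4, the brightest Gsdmc probe and the mean of the Gsdmd probes. Gsdmc4 lies in the tail of each panel, at -3.30, 2.54 and 1.80, and Gsdmd near the centre at -0.19, 0.02 and 0.23.

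Set against mock, Gsdmc4 was still 2.84-fold lower on zingerone and 1.70-fold lower on ginger. The zingerone value passed 2-fold, where 1.05% of measured genes were lower and 1.53% higher, and stood at place 38 from the lowest. The ginger value did not pass, with 1.08% lower and 1.62% higher among all measured genes, and no gasdermin was 2-fold apart. The brightest Gsdmc probe differed from mock by 0.28 on ginger and by -0.30 on zingerone.

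Between ginger and zingerone no gasdermin probe was 2-fold apart, while of all measured genes 0.358% were brighter by that much on ginger and 0.746% on zingerone. Gsdmc4 was 1.67-fold and the brightest Gsdmc probe 1.50-fold brighter on ginger. The Gsdmc4 difference of 0.74 stood at place 74 from the highest, above the 95th percentile of 0.41. Gsdmd differed by -0.21. The doses behind the 2 arrays are not known, so these values say nothing of the relative strength of extract and compound.

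The Gsdmc genes were next set beside markers of the epithelium, because their levels also moved between the arrays. General epithelial markers had a summed intensity of 206480 on ginger, 224667 on zingerone, 170538 on TNBS and 191923 on mock. Their median TNBS minus mock difference was -0.39, with 7 of 10 below 0, where 53.7% of all measured genes were below 0. None was at least 2-fold lower and Krt18 was at least 2-fold higher, beside 4.52% lower and 5.08% higher among all measured genes. The adhesion molecule Epcam differed by -0.50, E-cadherin (Cdh1) by -0.24 and the microvillus protein villin (Vil1) by -0.84. Gsdmc4 lay -2.91 below the median of these markers, and all 10 had a higher difference. Of all measured genes 0.08% had a lower difference than Gsdmc4. The brightest Gsdmc probe lay -1.63 below that median, and Gsdmd 0.20 above it.

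Surface colonocyte markers, of the absorptive cells at the top of the crypt, had a summed intensity of 55885 on ginger, 99347 on zingerone, 43204 on TNBS and 89126 on mock. Their median TNBS minus mock difference was -0.75, with 4 of 12 at least 2-fold lower and 1 higher, beside 4.52% and 5.08% of all measured genes. The nearest to Gsdmc4 were Car4, a carbonic anhydrase of the luminal surface, at -3.01 and Guca2a, which encodes guanylin, at -2.90. The keratin Krt20 differed by 0.69, and Emp1 was 2.92 higher. Goblet cell markers had a median of -0.98, with 4 of 8 lower, beside the same 4.52%. In the mean of a gene's probes the lowest of them was Spink4 at -2.26. None of the 12 surface or 8 goblet markers had a lower difference than Gsdmc4, beside 0.08% of all measured genes. With the brightest probe of each gene, the goblet median was -1.26 with 5 of 8 lower, and Clca1, a secreted goblet cell protein, lay below Gsdmc4. That Clca1 probe read 8136 on ginger, 7487 on zingerone, 1809 on TNBS and 23979.5 on mock, a TNBS minus mock difference of -3.73. The other 2 Clca1 probes were far dimmer, at most 373.8 on any array, and bring its mean to -1.48. The brightest Muc2 probe, for the main mucin of the colon, differed by -1.49, against -0.40 in the mean of its 4 probes. Mptx1, a pentraxin gene of the gut epithelium, had the deeper difference of -4.50.

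In the treated groups Gsdmc4 and the surface markers stood in another order. Guca2a read 14803 on ginger, 34596 on zingerone, 2772 on TNBS and 20660.0 on mock, and was brightest on zingerone. Slc26a3, the chloride-bicarbonate exchanger of colonocytes, read 1145 on ginger, 3704 on zingerone, 418 on TNBS and 2377 on mock, again brightest on zingerone. Car4 read 1915 on ginger, 2981 on zingerone, 968 on TNBS and 7778.5 on mock, so mock was brightest, but zingerone still lay above ginger. For ginger minus zingerone the surface markers had a median of -0.20, and 9 of 12 were below 0, beside 45.6% of all measured genes. Of the 12, 4 were at least 2-fold lower, beside 0.746% of all measured genes, while Gsdmc4 was 0.74 higher. All 12 surface markers, all 8 goblet cell markers and all 10 general epithelial markers had a lower ginger minus zingerone difference than Gsdmc4, in the mean of the probes and with the brightest probe alike. In the mean of the probes the same held for 99.3% of all measured genes. Relative to mock, the surface markers had a median of 0.29 on zingerone, against -1.50 for Gsdmc4. All 12 lay above the Gsdmc4 value, and 0.37% of all measured genes lay below it. On ginger the median of the surface markers relative to mock was 0.02. Of the 12, 3 lay below the Gsdmc4 value of -0.76, beside 2.53% of all measured genes.

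Markers of other tissue layers also moved between these arrays. Smooth muscle markers had a summed intensity of 15235 on ginger, 8748 on zingerone, 15958 on TNBS and 18746 on mock. All 6 were brighter on ginger than on zingerone, Cnn1 by 0.006 (log2), where 45.6% of all measured genes were dimmer on ginger. Neutrophil markers summed to 96898 on ginger, 75854 on zingerone, 149636 on TNBS and 5663 on mock. Of those measured, 7 of 7 were at least 2-fold higher on TNBS than on mock, beside 5.08% of all measured genes. Mmp8, Mmp9 and Cxcr2 passed the filter on arrays of TNBS-treated groups alone, and the 2 Cxcr2 probes differed by 2.17 and 0.18. Csf3r and Camp, under the median on all 4 arrays and so not counted, differed by 0.36 and 0.90. S100a8 and S100a9 made up most of the sums on the 3 arrays of TNBS-treated groups. By the median the neutrophil markers differed from TNBS by -1.20 on ginger and -1.21 on zingerone, with 4 of 7 at least 2-fold lower on each, beside 2.48% and 2.96% of all measured genes in that order. Markers of monocytes and macrophages summed to 7636 on ginger, 7666 on zingerone, 31946 on TNBS and 4862 on mock, most of the TNBS sum being Cd14 at 28071. Of 9 measured, Cd14 and Cd68 were at least 2-fold higher on TNBS than on mock, beside 5.08% of all measured genes. Below 0 were 5 of the 9, C1qc at -0.86 the lowest, near the 53.7% of all measured genes. The median was -0.08. T and NK cell markers summed to 1763 on ginger, 1300.0 on zingerone, 1542 on TNBS and 1829 on mock over 3 measured genes. Crypt base and stem cell markers summed to 6731, 8521, 2153 and 9261 over 4 in the same order. Reg4 made up most of these sums, at 5744, 7366.5, 1443 and 8165. Between TNBS and mock the crypt markers had a median of -0.86, with Reg4 and Smoc2 at least 2-fold lower, beside 4.52% of all measured genes. Axin2 differed by -0.07, and Lgr5 was under the median on all 4 arrays. The part of such shifts in the gasdermin values was not tested.

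**Figure D3:**
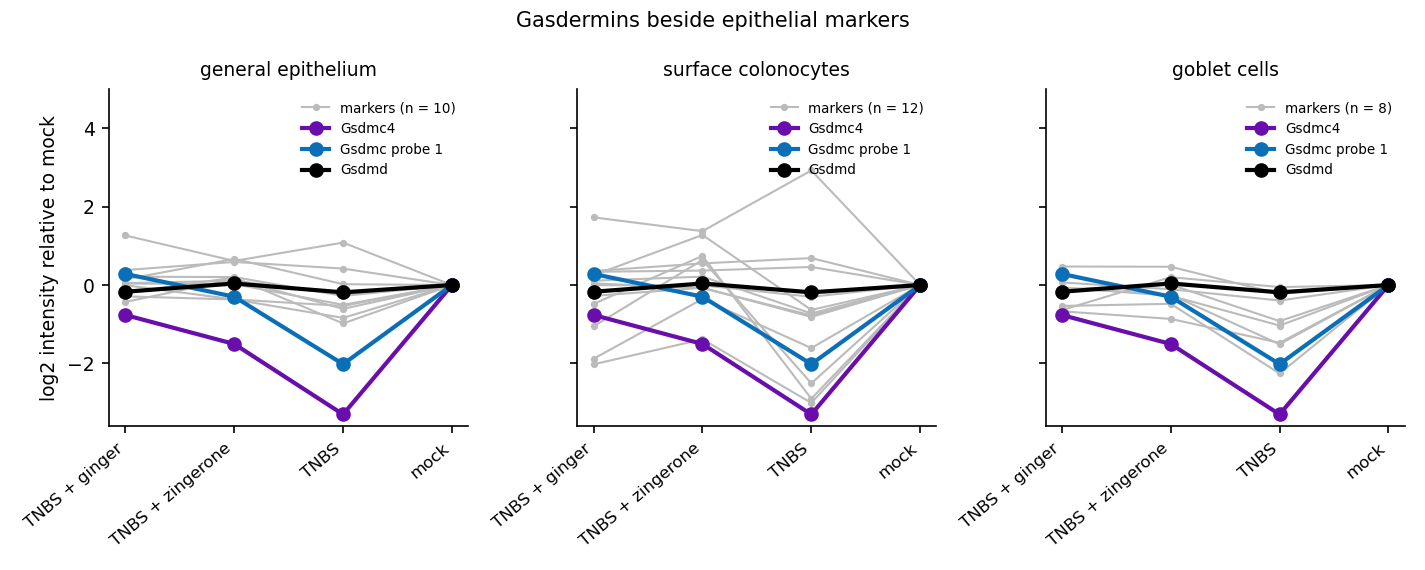
Log2 intensity relative to mock for Gsdmc4, the brightest Gsdmc probe and Gsdmd (coloured) and for measured markers of general epithelium, surface colonocytes and goblet cells (grey); lines join the values of 1 gene across the 4 arrays and stand for no order in time or dose. Each line is the mean of a gene's probes, other than the brightest Gsdmc probe. Gsdmc4 lies at -3.30 on TNBS and at -1.50 on zingerone, below the marker means in all 3 panels, while the brightest Clca1 probe, averaged into its line, lay lower at -3.73 and -1.68, and Gsdmd stays near 0.

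By Euclidean distance of log2 values centred over the 4 arrays, the measured genes with profiles most like Gsdmc4 were 1810065E05Rik at a distance of 0.78, Slc13a2 at 0.83, Sval1 at 0.85, Dbp at 0.89 and Cyp4f14 at 0.90, where the median distance of all measured genes was 2.43. Slc13a2 encodes a sodium-coupled dicarboxylate transporter, Dbp a transcription factor of the circadian clock output and Cyp4f14 a cytochrome P450. Slc13a2 read 1392 on ginger, 1318 on zingerone, 438 on TNBS and 2190 on mock. All 5 were at least 2-fold lower on TNBS than on mock, between -2.16 for Cyp4f14 and -2.86 for Dbp, and at least 2-fold higher than TNBS on both the ginger and the zingerone arrays. Such shared differences follow from choosing the 5 by their likeness to Gsdmc4 on these same arrays. For ginger minus zingerone the 5 were less alike, at 0.001, 0.08, -0.03, -0.44 and 0.46 in the order named, against 0.74 for Gsdmc4. The genes nearest to Gsdmd were led by Atp6ap2 at 0.03 and followed by Noa1, Lime1, Ftsj1 and Tbccd1. They differed little between arrays, which likewise follows from choosing them by likeness to Gsdmd. Likeness over 4 arrays is a description of these arrays.

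Genes next to the Gsdmc cluster did not share the low TNBS reading of Gsdmc4 and the brightest Gsdmc probe. On one side stood Myc, the growth-promoting transcription factor, whose TNBS minus mock difference was 0.53, and on the other Cyrib at 0.50 and Asap1 at 0.30, with Cyrib under the median on all arrays. Near Gsdmd, Naprt, an enzyme of NAD synthesis, differed by -0.24 between TNBS and mock and was 0.75 higher on ginger and 0.92 higher on zingerone than on TNBS. Mafa, also near Gsdmd, was under the median on all arrays. Beside the dim Gsdma genes lay Csf3, which encodes the neutrophil growth factor G-CSF and was 3.11 higher on TNBS than on mock, and Psmd3 and Ormdl3, at -0.25 and -0.10. Near Gsdme, Mpp6, Npy and Osbpl3 differed by 0.14, 0.64 and 0.58.

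The genes that act before a gasdermin pore were counted by list. Of 7 measured inflammasome sensors and adaptors 2 were at least 2-fold lower on TNBS than on mock and 1 was higher, beside 4.52% and 5.08% of all measured genes, and the list median was -0.41. Nlrp6, an epithelial sensor, read 1881.5 on ginger, 1476 on zingerone, 1243 on TNBS and 3003 on mock, so it was low on TNBS and between TNBS and mock on the other arrays. Naip2, a sensor of bacterial secretion systems, read 439 on ginger, 608 on zingerone, 334.5 on TNBS and 772 on mock. Mefv, which encodes pyrin, read 293 on TNBS, against 136 on mock. It was measured through the TNBS array alone, so that its TNBS value lay above its mock value follows from the filter. The filter does not set the size of that gap. Nlrp3 and the adaptor Pycard lay under the median on all arrays, Nlrp3 between 209 and 245. None of the 7 was 2-fold apart from TNBS on the ginger or the zingerone array. Among all measured genes, 1.35% were higher and 2.48% lower than TNBS on ginger, and 4.57% and 2.96% on zingerone. A count of 0 in 7 is near those shares.

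Among proteases that cut gasdermins, 5 were measured and 1 was at least 2-fold lower on TNBS than on mock and none higher, beside 4.52% and 5.08% of all measured genes, with a list median of -0.29. Casp1, which cuts gasdermin D and matures both cytokines, read 1453 on ginger, 1626 on zingerone, 1119 on TNBS and 3082 on mock, 2.75-fold lower on TNBS. Casp4 read 274 on ginger, 302 on zingerone, 601 on TNBS and 522 on mock, so that it was 2.19-fold lower on ginger and 1.99-fold lower on zingerone than on TNBS. Casp8 read 300.2 on ginger, 495 on zingerone, 324 on TNBS and 365.5 on mock, within 2-fold throughout. The neutrophil protease Ctsg differed by -0.29 between TNBS and mock, and Casp6 by -0.35.

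The cargo of the pores was split. Of 6 measured genes for released cytokines and membrane repair or rupture, 3 were at least 2-fold higher on TNBS than on mock, Il1b, Il33 and Il1a, and 1 was lower, Il18, beside 5.08% and 4.52% of all measured genes, with a list median of 0.45. Il18 read 1190 on ginger, 1862 on zingerone, 495 on TNBS and 2769 on mock, with TNBS lowest and mock highest as for Gsdmc4. Il1b ran the other way, at 4222 on ginger, 3196 on zingerone, 14298 on TNBS and 719 on mock. Il33, an alarmin, was 2.37 higher on TNBS than on mock (log2). Il1a was 1.25 higher in the mean of 2 probes that read 2.12 and 0.38, and was measured through the TNBS array alone. Ninj1, which ruptures the membrane after pores form, lay between 232 and 259.5 on the 4 arrays, under the median on each.

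Genes of type 2 signalling and tuft cells, the pathway known to raise Gsdmc genes, had a list median of -0.0044 between TNBS and mock over 8 measured members, none higher and 1 at least 2-fold lower, beside 5.08% and 4.52% of all measured genes. The lower gene was Retnlb, a goblet cell product of type 2 responses, at 569 on ginger, 888 on zingerone, 348 on TNBS and 998.5 on mock. The receptor chains Il4ra and Il13ra1 differed by 0.25 and 0.40 and Stat6 by -0.02, its 2 probes at 0.27 and -0.32. Avil, a tuft cell marker, was 1.89-fold higher on TNBS, short of 2-fold. The cytokine genes Il4 and Il13 were under the median on all 4 arrays. On ginger the list median relative to TNBS was -0.14 with no member 2-fold apart, beside 1.35% of measured genes higher and 2.48% lower. On zingerone it was -0.01 with Retnlb 2.55-fold higher, beside 4.57% of measured genes higher and 2.96% lower.

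Transcription factors of the colon epithelium had a median of -0.70 between TNBS and mock over 9 measured genes. In the mean of the probes 2 were at least 2-fold lower and none higher, beside 4.52% and 5.08% of all measured genes. The brightest Klf4 probe differed by -1.01, against -0.41 in the mean of its 3 probes. Klf5, a factor of crypt cells, was 2.48-fold lower and Cdx2, a master factor of intestinal identity, 2.20-fold lower. Cdx2 read 487 on ginger, 987.5 on zingerone, 257 on TNBS and 564.5 on mock, and was 2.03-fold lower on ginger than on zingerone, opposite in order to Gsdmc4. Hnf4a, a regulator of enterocyte genes, differed by -0.70 between TNBS and mock and was 1.14 higher on zingerone and 0.84 higher on ginger than on TNBS. Cdx1 was at least 2-fold higher than TNBS on both, by 1.09 on ginger and 1.26 on zingerone. Irf2, a factor known to maintain Gsdmd expression, differed by -0.31 between TNBS and mock, and Irf1 by -0.85.

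**Figure D4:**
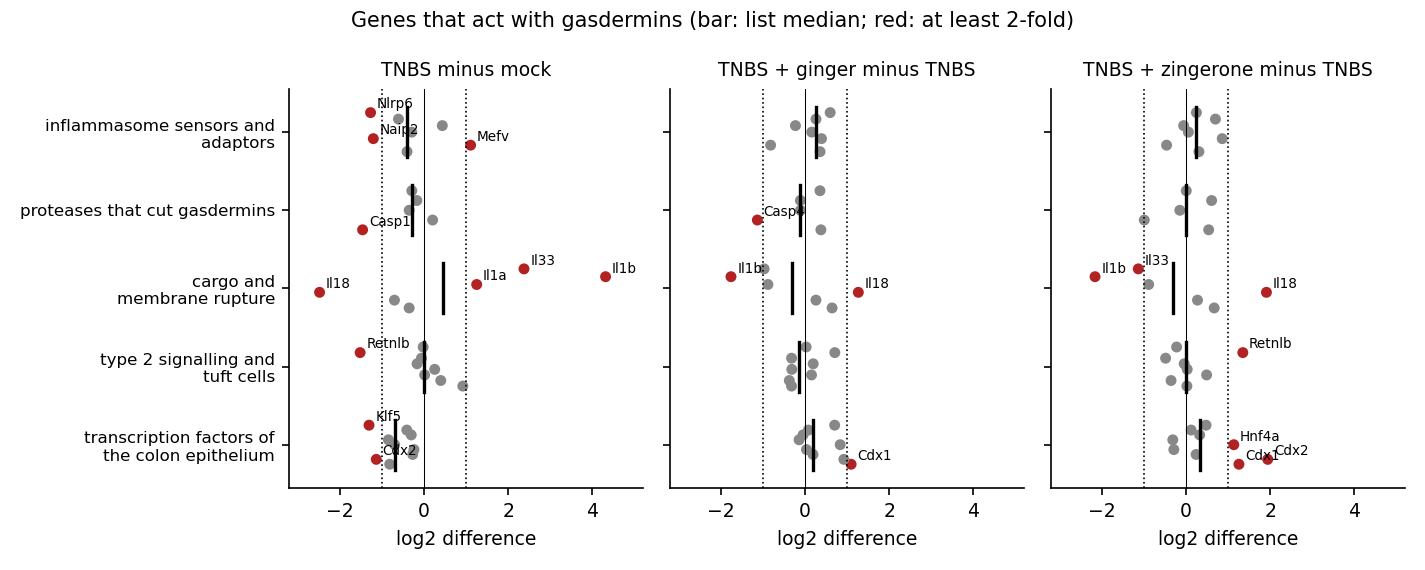
Log2 differences of measured genes in 5 lists set beside the gasdermins, in 3 comparisons of 2 arrays each. Each point is 1 gene, red points are at least 2-fold apart and named, and the bar is the list median. For TNBS minus mock, Il18 (-2.48), Retnlb (-1.52), Casp1 (-1.46), Klf5 (-1.31), Nlrp6 (-1.27), Naip2 (-1.21) and Cdx2 (-1.14) lie at the left. Il1b (4.31), Il33 (2.37), Il1a (1.25) and Mefv (1.11) lie at the right.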

How the data were processed

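Per the labels, total colon RNA was amplified and carried the dye Cy3. The authors deposited 1 linear Cy3 intensity per probe and array. The submitters' processing notes name limma; how the scans were background-corrected or normalized is not given in the sources used here. Once sorted, the 4 arrays' intensities differ by at most 1.82%, which points to quantile normalization, and the lowest value, 74.2, lies well above 0. Without background subtraction, folds of dim probes come out too small.

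Probe names came from the platform annotation, which gives 1 gene symbol for 21020 of 29922 probes, several for none and no symbol for 8902. Symbols were updated through RefSeq synonyms (GRCm38.p6), which changed 3410 and left 52 without a current match, and coordinates are left out because the values name no build. Gsdmc was listed as Gsdmc1, Gsdma as Gsdma1, Gsdmcl1 as Gsdmdc2 and Gsdme as Dfna5. Differences are of log2 intensity, with no pseudocount, computed in Python 3.11.15 with pandas 2.3.3, and array differences were checked on simulated data. With 1 array per group no test was run. The members and lists were chosen with earlier results of these data known. Genes named are all gasdermins, a set of pathway genes always given, pathway genes at least 2-fold apart (up to 4 of a list for TNBS minus mock), the 5 genes nearest in profile and the 2 coding genes on each side of a locus. Alternatives were renewed quantile normalization, equal medians, background subtraction, a floor, 2 filters and the brightest probe. Protein sequences were not used here.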

Additional observations from a re-analysis of the deposited data

How the results depend on the processing

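Of the alternatives run on Gsdmc4, background subtraction (the 5th percentile of an array, then a minimum of 50) was the one that moved it by a printed digit for TNBS minus mock, to -3.76 against -3.30, and its direction and side of 2-fold held in all 6 comparisons. The floor at the 25th percentile and the brightest probe cannot change it, as it has 1 probe above that floor on every array, and renewed quantile normalization and equal medians act on arrays already alike. With the brightest probe of every gene its place for TNBS minus mock was 11 from the lowest of 10696 measured genes. Gsdmc depended on how its 3 probes were joined: with the brightest probe it was -2.02 for TNBS minus mock, 2.30 for ginger minus TNBS and 1.72 for zingerone minus TNBS, which made 2 gasdermin genes at least 2-fold lower on TNBS than on mock and 2 higher on ginger and on zingerone than on TNBS. With background subtracted, Gsdmc was -1.01 for TNBS minus mock and 1.29 for ginger minus TNBS. Gsdme then passed 2-fold on zingerone at 1.01 against TNBS and mock, and at -1.01 for ginger minus zingerone. Its ginger, TNBS and mock values were all set to the minimum of 50, so these Gsdme differences repeat 1 zingerone reading. The median of Gsdmc4 and Gsdmc for zingerone minus mock was -0.82, and -1.59 with background subtracted and -1.50 with the filter at the 75th percentile, since Gsdmc4 alone then remained measured. With background subtracted, the genes higher and lower were 855 and 841 for TNBS minus mock, 326 and 416 for ginger minus TNBS, 963 and 534 for zingerone minus TNBS, 296 and 280 for ginger minus mock, 379 and 195 for zingerone minus mock, and 63 and 314 for ginger minus zingerone. The other 395 of 420 values kept their side of 2-fold or, for counts, stayed near the reported count. No paired analysis was possible because each group has 1 array. Signals under the median of the named probes limit what can be said of Gsdma, Gsdma2, Gsdmcl1, Gsdme and the dim Gsdmc probes.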

Other observations

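Of 11 measured genes of necroptosis and apoptosis none was at least 2-fold apart in any of the 6 comparisons, and their median for TNBS minus mock was 0.07. With 5.08% of all measured genes higher and 4.52% lower on TNBS than on mock, a count of 0 in 11 is near the share over all genes. In the other comparisons at most 4.57% of measured genes were higher and at most 2.96% lower. Ripk3, the kinase of necroptosis, read 507 on ginger, 855 on zingerone, 708 on TNBS and 674 on mock, and its target Mlkl read 379.8, 440.4, 566 and 406.5 in the same order. Cflar, an inhibitor of caspase-8 that was measured through the TNBS array alone, differed by 0.75 between TNBS and mock. Ripk3 differed by -0.75 between ginger and zingerone, and Birc3, an inhibitor of apoptosis, by -0.94 between zingerone and mock. Birc2, Bcl2 and Ripk1 also passed the filter on 1 array alone, those of TNBS, mock and zingerone in that order.

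Guanylate-binding proteins and related GTPases, which are induced by interferon and open the way to caspase-11, were brightest on mock. All 5 measured genes were below mock on ginger (median -0.65), on zingerone (-0.63) and on TNBS (-0.62). Of all measured genes 48.9%, 48.6% and 53.7% were below mock in that order. At least 2-fold lower than mock were 2 of 5 on ginger and on zingerone, Gbp2 and Igtp, and Igtp alone on TNBS, by 2.16-fold, beside 1.08%, 1.05% and 4.52% of all measured genes. Relative to TNBS all 5 were below 0 on ginger (median -0.41) and 4 of 5 on zingerone (-0.51), none by 2-fold. At least 2-fold lower than TNBS were 2.48% of all measured genes on ginger and 2.96% on zingerone. The shares of all measured genes below 0 were 47.1% and 51.5%. Gbp3 and Gbp5 were measured through the mock array alone, so their place below mock follows from the filter. Gbp2 read 543 on ginger, 463.5 on zingerone, 890 on TNBS and 1367 on mock.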
